A study of Mus musculus with 6 samples.

Results

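Tumor-associated macrophage genes were followed in gliomas grown in mice with and without host Esm1, the gene of the secreted proteoglycan Endocan. The set held 10 of the 16729 genes in the deposited table and was chosen by symbol: Aif1, Cd68, Lyz2, Ms4a7, Mrc1, Cd163, Arg1, Gpnmb, Spp1 and Trem2. RNA was taken from whole tumors of mG7080 cells, a gliomasphere culture from a mouse glioblastoma model whose mutations include p53 and Nf1, after injection of those cells into the brains of C57BL/6 hosts (the strain in the labels, C57BL/6J in the study's methods). The hosts were Esm1 KO mice (3 libraries, KO 1 to KO 3) or wild-type mice (3 libraries, WT 1 to WT 3), each library being labelled as a separate tumor. All hosts were female, and they were aged 6 to 8 weeks by the study's methods and 8 to 12 weeks by its reporting summary. Both groups carried the same injected cells, so the Esm1 deletion was in host cells alone and in every host cell type, macrophages included, while the tumor cells kept their own Esm1. The injected cells are a single culture, and no macrophages were sorted.

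Macrophages of a brain tumor come from resident microglia, from macrophages at the borders of the brain and from blood monocytes that enter the tumor and differentiate there. Aif1, Cd68, Lyz2 and Ms4a7 mark broad or recruited macrophages, Mrc1, Cd163 and Arg1 are the usual markers of the alternatively activated state, and Gpnmb, Spp1 and Trem2 belong to a lipid-handling state found in tumors, plaques and injured tissue. Tumor cells can also express Spp1 and Gpnmb, and reads of a whole tumor do not tell their cell of origin.

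The libraries held 17632070 to 22241832 counts on genes, and 1 count was worth 0.0441 to 0.0568 CPM (a library's reads on a gene scaled to a common library size with edgeR's TMM factors). For Esm1 itself 25, 21 and 82 reads were counted in the WT tumors, against 1, 24 and 4 in KO 1, KO 2 and KO 3. The count in the library labelled KO 2 was like those of the WT 1 and WT 2 tumors. Reads of Esm1 from host cells and from the injected cells cannot be told apart here, so this count does not settle the label. Over all genes tested the log2 CPM of KO 2 correlated at 0.984 with WT 1, the highest of its correlations (Pearson, a description across genes). The comparison below is therefore given over all 6 libraries, without the library labelled KO 2, and over WT 1, WT 2, KO 1 and KO 3, the libraries whose values the study tabulates. KO 2 was singled out by values of these same data. Leaving out the KO library nearest to WT can widen the difference between groups and narrow the KO spread. Adjusted p-values from the comparisons that lack KO 2 are therefore descriptive and can be too small. Summed CPM of 16 neuron genes ran from 2992 to 7145 in the WT libraries and was 15118, 6178 and 17997 in KO 1, KO 2 and KO 3, while that of 15 proliferation genes ran from 1500 to 2831 in WT and was 170, 1643 and 68.7. In KO 1 and KO 3 the neuron sum was higher and the proliferation sum lower than in WT, where most of the macrophage genes below were lower. The part of both in those results was not tested.

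In KO 1 and KO 3 macrophage genes separated into those that were far lower than in the WT tumors (Ms4a7, Gpnmb, Lyz2), those that were lower to a lesser extent (Cd68, Aif1, Trem2) and the scavenger receptors Mrc1 and Cd163, which were not lower. Spp1 and Arg1 were also lower there, but varied widely among the WT tumors. Over all 6 libraries none of the 10 genes was called (edgeR quasi-likelihood test, adjusted p under 0.05), against a background of 0% of 16166 genes in either direction and no adjusted p below 0.184. Without adjustment, Cd68 and Spp1, 2 of the 10, were lower at a p under 0.05, as were 11.9% of all genes, and 0 were higher, as were 15.2%. Of the 16166 genes entered, DESeq2 called 431 lower and 775 higher, among them 1 of the 10, Spp1, lower. It gave no adjusted p for Lyz2 and Arg1. In the edgeR fit the median log2 fold change of the 10, KO minus WT, was -1.15, against -0.02 over all genes tested, and 8 of the 10 were below 0. Without KO 2, 7 of the 10 were called lower and 0 higher, where 28.3% of 16279 genes were called lower and 24.5% higher, and the median was -2.17 against -0.02. At a fold change above 4 as well, 4 of the 10 were lower (Lyz2, Ms4a7, Gpnmb and Spp1), where 7.48% of genes were, and 0 were higher, where 1.51% were. Over WT 1, WT 2, KO 1 and KO 3, 5 of the 10 were called lower, with a background of 13.9% lower and 2.87% higher, and the median was -1.70 against -0.03. In bulk tissue, fewer macrophages and less RNA of a gene per macrophage cannot be told apart. The study also stained tumor sections for Iba1, Cd68, another macrophage marker and a T cell marker. It found no significant difference by host genotype. Staining on sections and RNA of a whole tumor are unlike measures, and the study does not say whether the same tumors were used.

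**Figure D1:**
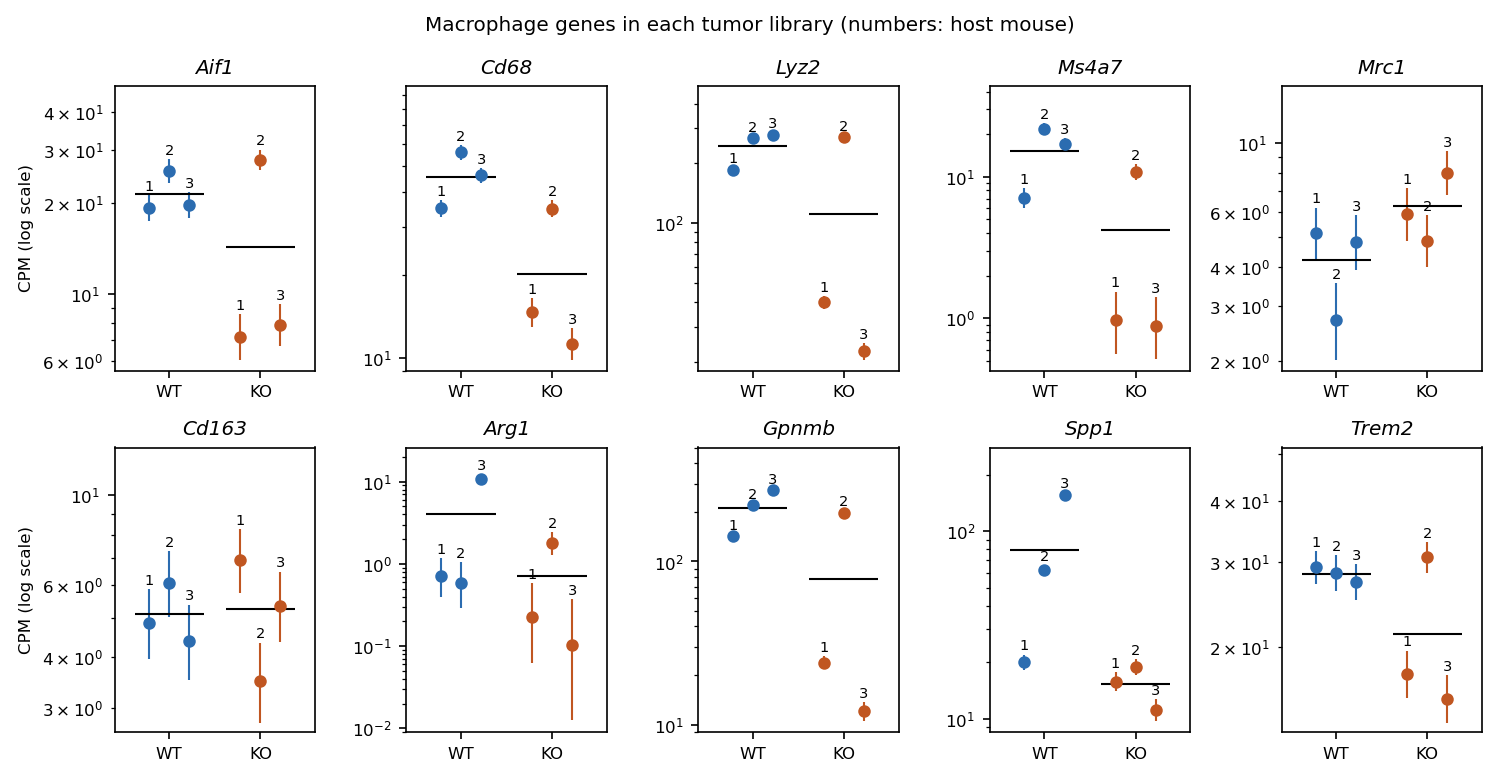
CPM of each gene in every library on a log scale, with WT in blue, KO in orange, the mouse number above each point, exact 95% counting intervals as bars and the arithmetic group mean as a line. KO 2 lies at or near the WT points in most panels, whereas KO 1 and KO 3 lie far below for Lyz2, Ms4a7 and Gpnmb and among or above the WT points for Mrc1 and Cd163.

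The stretches before the transcription start are shown for Lyz2, Ms4a7 and Spp1, which fell without KO 2, and for Mrc1, which was not called in either direction, because these 4 of the 9 genes in the promoter table hold the letters GGAAGT, the core bound by PU.1 (Spi1), the master regulator of macrophages, and by other ETS factors. Sequences are from RefSeq on GRCm38.p6, 5′ to 3′ on the gene's strand and without bases inside the annotated gene, and capitals mark GGAAGT on either strand, read as ACTTCC where it lies on the opposite one.
Lyz2 (chr10:117282322-117282522, minus strand): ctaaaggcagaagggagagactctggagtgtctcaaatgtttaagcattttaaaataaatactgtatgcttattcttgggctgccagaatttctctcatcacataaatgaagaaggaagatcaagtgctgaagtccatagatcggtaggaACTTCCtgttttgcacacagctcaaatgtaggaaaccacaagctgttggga
Ms4a7 (chr19:11336147-11336396, minus strand): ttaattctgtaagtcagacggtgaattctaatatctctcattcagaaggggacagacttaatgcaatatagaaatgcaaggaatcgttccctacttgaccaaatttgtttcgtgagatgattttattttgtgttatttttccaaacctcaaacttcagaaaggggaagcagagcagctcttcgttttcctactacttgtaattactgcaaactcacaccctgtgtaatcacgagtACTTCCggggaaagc
Spp1 (chr5:104434861-104435110, plus strand): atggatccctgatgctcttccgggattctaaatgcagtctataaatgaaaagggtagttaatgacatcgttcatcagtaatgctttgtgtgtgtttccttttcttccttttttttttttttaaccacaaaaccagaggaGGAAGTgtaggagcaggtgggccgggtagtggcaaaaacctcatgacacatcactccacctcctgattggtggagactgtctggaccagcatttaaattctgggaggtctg
Mrc1 (chr2:14229164-14229391, plus strand): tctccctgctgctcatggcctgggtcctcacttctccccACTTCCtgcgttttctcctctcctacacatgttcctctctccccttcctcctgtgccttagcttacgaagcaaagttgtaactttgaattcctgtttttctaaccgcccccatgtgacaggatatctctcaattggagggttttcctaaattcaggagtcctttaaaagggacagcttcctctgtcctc
Counted from the RefSeq start, the match began 100 bases before it in Lyz2, 15 in Ms4a7, 111 in Spp1 and 211 in Mrc1. The stretches shown end earlier for Lyz2, by 49 bases, and for Mrc1, by 22, because those bases lie inside the annotated gene. Of 32851 promoter windows of the same 250 bases, 19.7% held it. These windows cover every listed start of a gene, whereas each of the 9 genes was searched in a single window, at its most upstream start. The letters TGANTCA, a loose AP-1 pattern that allows any base in the middle, were found in 2 of the 9 genes and in 6.75% of the windows. Trem2 had 1 match, which read TGAATCA. Cd68 had 2 matches, both TGAGTCA (shown next with those letters in capitals).
Cd68 (chr11:69666171-69666420, minus strand): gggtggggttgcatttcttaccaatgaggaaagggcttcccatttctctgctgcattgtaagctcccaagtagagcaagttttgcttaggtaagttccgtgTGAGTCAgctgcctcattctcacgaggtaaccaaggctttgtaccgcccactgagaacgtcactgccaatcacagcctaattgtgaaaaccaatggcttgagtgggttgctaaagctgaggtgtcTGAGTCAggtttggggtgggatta
Neither motif was in the windows of Aif1, Cd163 and Gpnmb. A match is a description of letters, and genes with and without one are found among those that fell and those that were not called.

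Among the broad markers, Lyz2 encodes lysozyme, an enzyme of myeloid granules that breaks bacterial cell walls, and lies on chromosome 10 from 117277331 to 117282321 (GRCm38). It stood at 185, 268 and 279 CPM in WT 1, WT 2 and WT 3 and at 39.8, 271 and 22.5 CPM in KO 1, KO 2 and KO 3. KO 2 lay inside the WT range and the other KO libraries far below it, so the groups overlapped. The log2 fold change of Lyz2 was -1.13 over all 6 libraries (standard error 0.92, adjusted p = 0.374) and -2.95 without KO 2 (standard error 0.34, adjusted p = 0.00798). Its near-identical neighbour Lyz1 is not among the genes analysed here, and reads shared by the pair make the level of Lyz2 uncertain.

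Ms4a7, a membrane protein of the MS4A family found in recruited and border macrophages and low in resting microglia, lies on chromosome 19 from 11321039 to 11336146. It had 151, 414 and 341 counts in the WT libraries, or 7.11, 21.9 and 16.9 CPM, and 17, 246 and 17 counts in KO 1, KO 2 and KO 3, or 0.965, 10.8 and 0.883 CPM. Again KO 2 lay within the WT range and the other KO libraries below every WT library. Ms4a7 changed by -1.84 over all 6 libraries (standard error 1.06, adjusted p = 0.248) and by -4.02 without KO 2 (standard error 0.58, adjusted p = 0.00814), a 16.2-fold lower level.

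Cd68, a lysosomal glycoprotein used as a general marker of phagocytes (chromosome 11, 69664213 to 69666153), stood at 34.9, 55.8 and 46.0 CPM in the WT libraries and at 14.6, 34.8 and 11.3 CPM in the KO libraries. Every KO library was below every WT library, as for Spp1 but for no other gene of the set, which was so for 14.8% of all genes tested. No gene of the set (0 of 10) was above every WT library in every KO library, which was so for 12.6% of all genes. The gap between KO 2 and WT 1 was 34.8 against 34.9 CPM, and on the deposited FPKM scale KO 2 (45.6) was above WT 1 (44.6), so the separation depends on the scaling. The log2 fold change of Cd68 was -1.17 over all 6 libraries (standard error 0.46, adjusted p = 0.184, exact two-sided permutation p = 0.1, the smallest that 3 against 3 libraries can give) and -1.79 without KO 2 (standard error 0.24, adjusted p = 0.00798).

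Aif1 encodes Iba1, the actin-bundling protein by which microglia and macrophages are stained in brain sections (chromosome 17, 35170991 to 35176068). Its level was 19.3, 25.6 and 19.7 CPM in the WT libraries and 7.21, 27.9 and 7.89 CPM in the KO libraries. KO 2 was the highest of all 6, and the other KO libraries were the lowest. Aif1 changed by -0.58 over all 6 libraries (standard error 0.56, adjusted p = 0.444) and by -1.49 without KO 2 (standard error 0.20, adjusted p = 0.00798).

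None of the genes of alternative activation (0 of 3) was called over all 6 libraries, without KO 2 or over WT 1, WT 2, KO 1 and KO 3. Mrc1, the mannose receptor CD206 that takes up glycoproteins (chromosome 2, 14229392 to 14332057), stood at 5.13, 2.70 and 4.81 CPM in the WT libraries and at 5.90, 4.85 and 8.0 CPM in the KO libraries. KO 1 and KO 3 were above every WT library and KO 2 lay between WT 3 and WT 1. The log2 fold change of Mrc1 was 0.57 over all 6 libraries (standard error 0.35, adjusted p = 0.268) and 0.73 without KO 2 (standard error 0.36, adjusted p = 0.129), so the difference was not called.

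Cd163, the scavenger receptor for haemoglobin bound to haptoglobin (chromosome 6, 124304656 to 124330527), had 4.85, 6.08 and 4.37 CPM in the WT libraries and 6.92, 3.48 and 5.35 CPM in the KO libraries. The groups overlapped, with KO 1 the highest and KO 2 the lowest library. Its log2 fold change was 0.04 over all 6 libraries (standard error 0.32, adjusted p = 0.928) and 0.29 without KO 2 (standard error 0.26, adjusted p = 0.381).

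Arg1, the cytosolic arginase that turns arginine into ornithine and urea (chromosome 10, 24915221 to 24927484), was high in a single WT tumor. Its counts were 15, 11 and 217 in the WT libraries (0.706, 0.582 and 10.8 CPM) and 4, 41 and 2 in KO 1, KO 2 and KO 3 (0.227, 1.81 and 0.104 CPM). WT 3 stood apart from the other WT libraries, and KO 2 came next. The log2 fold change was -2.45 over all 6 libraries (standard error 1.5, adjusted p = 0.268) and 0.19 without WT 3 (standard error 1.21, adjusted p = 0.923). With KO 2 kept, its direction therefore rested on WT 3. Without KO 2 it was -4.55 (standard error 1.81, adjusted p = 0.0767), where DESeq2 called Arg1 lower (adjusted p = 0.00205) and limma-voom did not (adjusted p = 0.183). Over WT 1, WT 2, KO 1 and KO 3, which lack both WT 3 and KO 2, it was -1.94 (standard error 0.60, adjusted p = 0.0723).

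Of the lipid-associated genes, Gpnmb encodes a lysosomal transmembrane glycoprotein that rises with lysosomal load (chromosome 6, 49036546 to 49070929). It stood at 143, 221 and 276 CPM in the WT libraries and at 24.0, 199 and 12.04 CPM in the KO libraries. KO 2 was between WT 1 and WT 2, and KO 1 and KO 3 were far below all of them. Gpnmb changed by -1.44 over all 6 libraries (standard error 1.03, adjusted p = 0.325) and by -3.54 without KO 2 (standard error 0.44, adjusted p = 0.00798), an 11.6-fold lower level.

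Spp1 encodes osteopontin, a secreted ligand of integrins and CD44 (chromosome 5, 104435118 to 104441050), and 309 bases of its exons are shared with the predicted gene Gm42793 on the same strand, so reads there cannot be assigned with certainty. Its level was 19.96, 62.3 and 157 CPM in the WT libraries, a 7.84-fold spread, and 15.8, 18.9 and 11.2 CPM in the KO libraries. All KO libraries, KO 2 included, were below all WT libraries, and WT 1 was close to KO 2. The log2 fold change was -2.38 over all 6 libraries (standard error 0.73, adjusted p = 0.184, exact two-sided permutation p = 0.1), and DESeq2 called it over the same libraries (adjusted p = 0.0289). Without KO 2 it was -2.54 (standard error 0.86, adjusted p = 0.0489), where DESeq2 called Spp1 (adjusted p = 0.00146) and limma-voom did not (-2.11, adjusted p = 0.124). Over WT 1, WT 2, KO 1 and KO 3 it was -1.60 and not called (standard error 0.56, adjusted p = 0.0888). For these libraries DESeq2 called Spp1 (adjusted p = 0.022) and limma-voom did not (adjusted p = 0.142). Leaving out WT 3 alone moved the log2 fold change to -1.40 (standard error 0.52, adjusted p = 0.42).

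Trem2, the lipid receptor of microglia and macrophages that signals through Tyrobp (chromosome 17, 48346401 to 48354147), varied least among the WT tumors. It stood at 29.2, 28.5 and 27.3 CPM in the WT libraries, a 1.07-fold spread, and at 17.6, 30.6 and 15.6 CPM in the KO libraries. KO 2 was the highest library and the other KO libraries were the lowest. Trem2 changed by -0.41 over all 6 libraries (standard error 0.28, adjusted p = 0.303) and by -0.75 without KO 2 (standard error 0.14, adjusted p = 0.0124). Over WT 1, WT 2, KO 1 and KO 3 it changed by -0.79 (standard error 0.20, adjusted p = 0.0525, not called). There DESeq2 called it (adjusted p = 0.0295) and limma-voom did not (adjusted p = 0.0525).

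**Figure D2:**
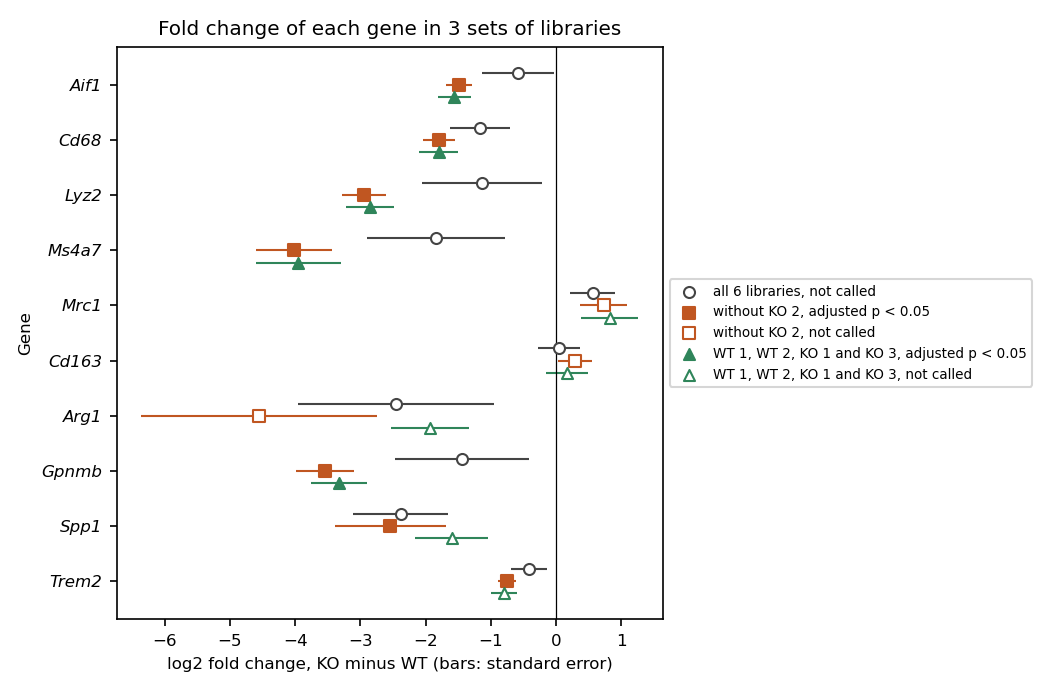
Log2 fold change, KO minus WT, of each gene with its standard error over all 6 libraries (circles), without KO 2 (squares) and over WT 1, WT 2, KO 1 and KO 3 (triangles), filled where the adjusted p was under 0.05. The circles are all open, and the filled squares run from -0.75 for Trem2 to -4.02 for Ms4a7.

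The level in the library labelled KO 2 was inside the WT range for 5 genes (Lyz2, Ms4a7, Mrc1, Arg1 and Gpnmb), below it for 3 (Cd68, Cd163 and Spp1) and above it for 2 (Aif1 and Trem2). In KO 1 and KO 3, by contrast, 8 of the 10 genes were below every WT library and Mrc1 was above, where 40.3% of all genes tested without KO 2 were below and 37.2% above. For Spp1 the library labelled KO 2 stood with the other KO libraries, with a log2 difference from the WT mean of -1.61 beside -1.87 and -2.37 for KO 1 and KO 3. For Gpnmb the corresponding differences were -0.04 for KO 2 and -3.09 and -4.08 for KO 1 and KO 3.

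**Figure D3:**
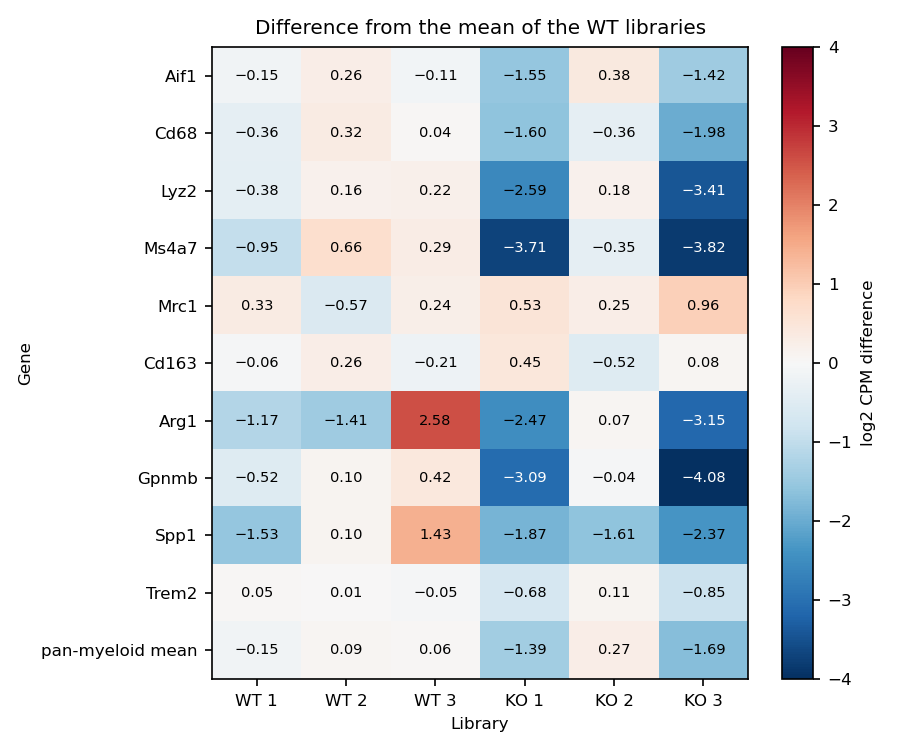
Log2 CPM of each gene in each library minus the mean of the WT libraries, with the mean of 20 pan-myeloid genes in the last row, on a color scale that ends at -4 and 4. KO 1 and KO 3 are blue for all genes but Mrc1 and Cd163, KO 2 is pale for all but Spp1, and WT 3 is red for Arg1 and Spp1.

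Levels are compared between genes on the deposited FPKM scale, which divides by gene length. In the WT libraries Lyz2 was highest (245 ± 54.9 FPKM, SD, n = 3) and did not overlap the next genes, Spp1 (59.6 ± 52.5), Gpnmb (59.5 ± 19.2) and Cd68 (59.4 ± 14.5), which overlapped each other. Trem2 (26.2 ± 0.72) and Aif1 (26.05 ± 4.65) overlapped each other, and Ms4a7 followed at 12.2 ± 6.13. Arg1, at 2.89 ± 4.21, overlapped both Ms4a7 and Cd163, with 7.75 FPKM in WT 3 against 0.50 and 0.42 in WT 1 and WT 2. Cd163 was at 1.20 ± 0.22 and Mrc1 at 0.84 ± 0.25 FPKM, without overlap between them. In KO 1 and KO 3 the order differed: Lyz2 (26.5 FPKM, the mean of these libraries) was followed by Cd68 (14.2) and Trem2 (12.9), Gpnmb was at 4.27, and Ms4a7 (0.62) was below Cd163 (1.22) and Mrc1 (1.16). In KO 2 Lyz2 was at 273, Gpnmb at 55.9 and Cd68 at 45.6 FPKM.

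To place these genes among the myeloid cells of a library, each log2 CPM was set against the mean of 20 pan-myeloid genes in the same library. That mean differed from the WT mean by -1.39 in KO 1, 0.27 in KO 2 and -1.69 in KO 3. Relative to it, Aif1 (0.05) and Cd68 (-0.25) in KO 1 and KO 3 stood near their place in the WT libraries, on the log2 scale, so they were lower by about as much as the pan-myeloid genes. Ms4a7 (-2.22), Gpnmb (-2.05) and Lyz2 (-1.46) were lower than the pan-myeloid mean by more, Spp1 differed by -0.58 and Arg1 by -1.27 inside a wide WT spread, and Trem2 was 0.77 higher. Mrc1 (2.29) and Cd163 (1.81) were higher relative to the pan-myeloid genes, while their own CPM was not called changed. With Csf1r, the receptor of the macrophage growth factor Csf1, as the reference in place of the 20 genes, the difference of Aif1 was -1.47, of Cd68 -1.77, of Trem2 -0.75, of Mrc1 0.76 and of Cd163 0.28, so the sign for Trem2 and Aif1 depends on the reference.

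**Figure D4:**
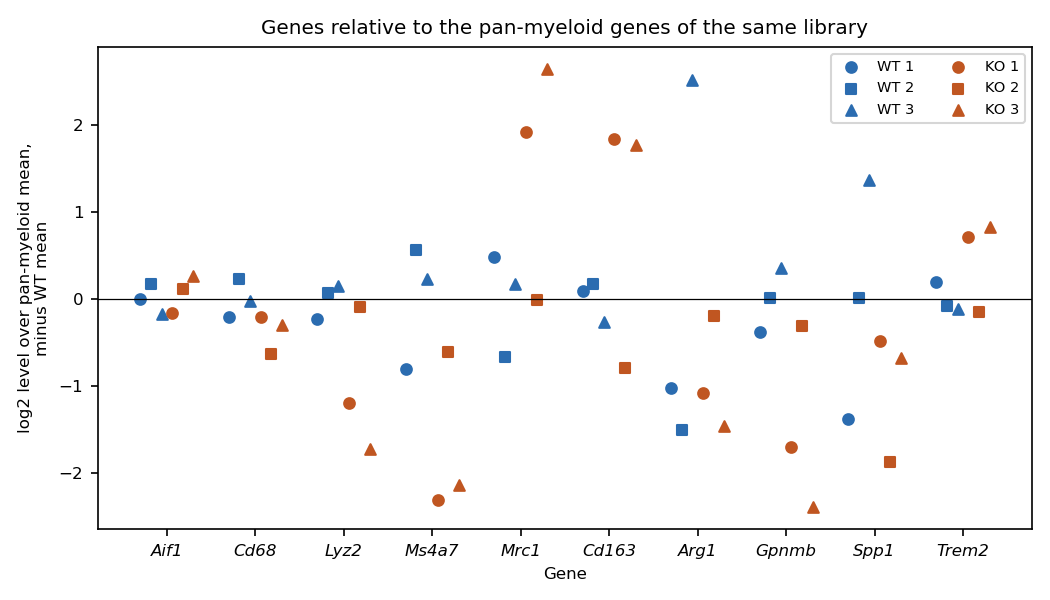
Log2 level of each gene over the mean of 20 pan-myeloid genes in the same library, minus the mean of the WT libraries, with WT in blue, KO in orange and the marker shape giving the mouse number. KO 1 and KO 3 are above the WT points for Mrc1, Cd163 and Trem2 and below them for Lyz2, Ms4a7 and Gpnmb, and KO 2 lies among or below the WT points for these genes.

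The other lists are read against the shares of all genes given above, over all 6 libraries (0 called in each of them), without KO 2 and over the 4 libraries that the study tabulates. Most of the pan-myeloid genes themselves were called lower without KO 2, though not all. Over all 6 libraries 0 of 20 were called and their median log2 fold change was -0.68, and without KO 2 16 were lower, 1 was higher and the median was -1.67. The 4 tabulated libraries gave 16 lower and 0 higher. Cybb, the catalytic subunit of the phagocyte oxidase, was the lowest over all 6 libraries and changed by -3.92 without KO 2 (standard error 0.44, adjusted p = 0.00798), from 50.6, 94.1 and 82.8 CPM in the WT libraries to 6.70 and 3.17 CPM in KO 1 and KO 3. Csf1r stood at 168, 139 and 141 CPM in the WT libraries and at 146, 194 and 148 CPM in the KO libraries. Its log2 fold change without KO 2 was -0.01 (standard error 0.16, adjusted p = 0.972), and that of Itgam (CD11b) was -0.13 (standard error 0.19, adjusted p = 0.575). The gene called higher was Coro1a, an actin-binding protein of leukocytes that neurons also express, at 0.69 (standard error 0.20, adjusted p = 0.0324).

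Around Trem2, 20 genes of its signaling and of the lipid-associated state were listed. Without KO 2, 15 were lower, 0 higher and 5 not called, with a median of -1.18, and over all 6 libraries 0 were called, with a median of -0.67. In the 4 tabulated libraries 11 were lower and 0 higher. Tyrobp, the signaling partner of Trem2, changed by -1.68 (standard error 0.18, adjusted p = 0.00798) without KO 2, more than Trem2 itself in size, though the difference between them was not tested. Itgax (CD11c) stood at 53.0, 92.2 and 64.1 CPM in the WT libraries and at 5.39, 61.9 and 1.51 CPM in the KO libraries, a change of -4.32 without KO 2 (standard error 0.58, adjusted p = 0.00798). Lgals3 (galectin-3) changed by -3.83 (adjusted p = 0.0129) and Plin2, which coats lipid droplets, by -2.65 (adjusted p = 0.00798). Apoe, a lipoprotein and Trem2 ligand also made by astrocytes, was not called at -0.25 (standard error 0.25, adjusted p = 0.434), nor was Igf1 at 0.26 (standard error 0.29, adjusted p = 0.474).

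For the receptors of osteopontin, 4 of 9 were lower and 1 higher without KO 2, with a median of -0.82. Over WT 1, WT 2, KO 1 and KO 3, Cd44 and Itgb1 alone were called, 2 of the 9, and over all 6 libraries 0 were. Cd44, at 31.9, 64.5 and 59.0 CPM in the WT libraries and 5.39, 33.5 and 6.18 CPM in the KO libraries, changed by -3.14 (standard error 0.35, adjusted p = 0.00798). Itgb1 changed by -2.15 (standard error 0.28, adjusted p = 0.00798), while Itgav rose by 0.48 (standard error 0.13, adjusted p = 0.0255). These receptors are carried by tumor cells and many others as well as by macrophages.

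Among 9 further genes of arginine and polyamine metabolism, 5 were lower and 1 higher without KO 2, with a median of -0.44. With the 4 tabulated libraries 3 were lower and 0 higher. Nos2, the inducible nitric oxide synthase that competes with arginase for arginine, changed by -2.60 (standard error 0.69, adjusted p = 0.0259), and Arg2, the mitochondrial arginase, was not called at 1.14 (standard error 0.39, adjusted p = 0.0518). Odc1, which makes putrescine from ornithine, changed by -2.26 (standard error 0.29, adjusted p = 0.00798). Of 12 lysosome regulators and partners of Gpnmb, 4 were lower and 1 higher, with a median of -0.38: Grn (progranulin) changed by -1.5 (standard error 0.18, adjusted p = 0.00798), Sdc4, a binding partner of Gpnmb, rose by 0.75 (standard error 0.23, adjusted p = 0.0366), and Mitf, a transcription factor for Gpnmb, was not called at -0.17 (standard error 0.16, adjusted p = 0.398). Of these 12, Grn and Lamp2 were called over WT 1, WT 2, KO 1 and KO 3, and Sdc4 was not (adjusted p = 0.117).

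Of 15 other genes of scavenging and alternative activation tested without KO 2, 8 were lower, 1 was higher and 6 were not called, with a median of -1.36, and over WT 1, WT 2, KO 1 and KO 3 7 were lower and 0 higher. Msr1, the class A scavenger receptor, stood at 6.59, 18.9 and 19.2 CPM in the WT libraries and at 1.42, 10.5 and 0.571 CPM in the KO libraries, a change of -3.88 without KO 2 (standard error 0.67, adjusted p = 0.0107). Hmox1, which degrades the haem that Cd163 helps to bring in, changed by -3.34 (standard error 0.64, adjusted p = 0.0126), with 130 CPM in WT 3 against 37.5 and 50.9 in WT 1 and WT 2. Maf, a transcription factor of tissue macrophages that other brain cells also express, rose by 1.19 (standard error 0.33, adjusted p = 0.0278).

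Genes of the classical state were lower too: without KO 2, 13 of 14 tested were lower and 0 higher, with a median of -3.32, and Ptgs2 was the gene not called (1.20, standard error 0.46, adjusted p = 0.0681). Over WT 1, WT 2, KO 1 and KO 3, 10 of the 14 were lower and 0 higher. Cd86, a co-stimulatory ligand, changed by -2.25 (standard error 0.25, adjusted p = 0.00798). For monocyte recruitment and growth factors, 9 of 13 were lower and 1 higher, with a median of -2.95, and over WT 1, WT 2, KO 1 and KO 3 8 were lower and 0 higher. Ccr2, the chemokine receptor of inflammatory monocytes, stood at 6.87, 11.2 and 9.33 CPM in the WT libraries and at 0.908, 10.5 and 1.40 CPM in the KO libraries, a change of -2.95 without KO 2 (standard error 0.36, adjusted p = 0.00798). Its ligand Ccl2 changed by -3.89 (standard error 0.57, adjusted p = 0.00839) and Csf1 by -0.86 (standard error 0.15, adjusted p = 0.0106). Il34, the other ligand of Csf1r and one that neurons make, rose by 1.57 (standard error 0.39, adjusted p = 0.0215).

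The homeostatic microglia genes had a median of 0.19 over all 6 libraries with 0 of 12 called and 0.28 without KO 2 with 3 lower and 2 higher. Tmem119, Sall1 and Olfml3 were lower without KO 2, Tmem119 by -0.61 on the log2 scale (standard error 0.19, adjusted p = 0.0399). P2ry12, the purinergic receptor of resting microglia, stood at 36.5, 17.0 and 19.1 CPM in the WT libraries and at 54.4, 36.3 and 48.2 CPM in the KO libraries, and rose by 1.09 without KO 2 (standard error 0.35, adjusted p = 0.0433), as did Siglech by 1.19 (standard error 0.34, adjusted p = 0.0315). Over WT 1, WT 2, KO 1 and KO 3 only Olfml3 of the 12 was called (-0.88, standard error 0.19, adjusted p = 0.0443), and 0 were higher. Of 8 border macrophage genes tested without KO 2, which include Mrc1, Cd163 and Ms4a7, 2 were lower (Ms4a7 and Clec4n) and 0 higher. Their median was 0.25, or 0.06 over the 6 of them also tested over all 6 libraries, where it was -0.08. Summed CPM of the microglia genes was 646 to 777 in the WT libraries and 694, 863 and 637 in KO 1, KO 2 and KO 3, against 449, 692 and 841 in the WT libraries and 133, 604 and 94.9 in the KO libraries for the 10 macrophage genes.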

How the data were processed

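Total RNA of 6 whole tumors was sequenced, 3 per host genotype. Per the labels, RNA was extracted with TRIzol, libraries were made with the NEBNext Ultra kit and the processing notes name CASAVA 1.8.2, mm10 and edgeR, whereas the study's methods name the Ovation Ultralow kit, HTSeq counting of unique reads and hg38, and its reporting summary STAR. The gene names are those of mouse, and which build was used was not settled. The deposited counts are the authors' unnormalized read numbers for each gene. The deposited FPKM values, which the authors divided by gene length and library scale, were used only for levels between genes. The table also holds the authors' fold changes, p-values and FDR, and normalized counts, none of which were used. No column of per-sample values was left without a sample (0 columns).

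The model was edgeR 4.0.16 in R 4.3.3 (filterByExpr with a minimum count of 10 and a total of 15, TMM, quasi-likelihood F test, Benjamini-Hochberg adjustment over all genes tested), and a gene was called at an adjusted p under 0.05. Log2 CPM used a prior count of 2, and single values were compared with the exact two-sided permutation test over libraries, which for 3 against 3 cannot go below 0.1. Counting intervals are exact at 95%, a count of 0 allows 3 counts (0.132 to 0.170 CPM per library), and both cover counting error only. Alternatives were RLE, upper quartile and total count scaling, other filters on low counts, DESeq2 1.42.0, limma-voom (limma 3.58.1), edgeR's exact test, each library left out, the replicate number as a block and 4 libraries alone. DESeq2 and limma-voom without KO 2 and over the 4 libraries were added after seeing the data. The fit was tested on simulated data, with a dispersion of 0.05 for every gene and the same expected share of reads in all libraries of a group. At 3 against 3 libraries it recovered 97% of 8-fold and 42% of 2-fold changes, 2 of its calls among 16200 genes being false. At 2 against 2 it recovered 97% and 23%, 5 of its calls among 16217 being false. Differences in cell content between tumors were not simulated, so these rates do not give the power or false calls of the real comparisons.

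The 10 genes, the 19 other gene lists and the rule for naming genes were chosen with earlier results of these data known. All 10 were named. Of each other list the rule allowed the lowest and highest gene over all 6 libraries and up to 5 called genes by smallest p. It also allowed genes by role (such as Tyrobp, Csf1r, Apoe, Cd44, Nos2, Ccr2 and P2ry12). Only some of the allowed genes are named in the text, and for several lists none is, so those shown are a selection. Other genes (Itgam, Mitf, Sall1 and others of these lists) were added after their values were seen. All 10 passed the filter on low counts in every comparison. Positions are from GRCm38 (GENCODE vM21) by symbol, and promoters are RefSeq windows of 250 bases before the most upstream start on GRCm38.p6, held for 9 of the 10 (not Arg1). Replicate libraries differed by far more than counting noise, so none was counted as a duplicate.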

Additional observations from a re-analysis of the deposited data

How the results depend on the processing

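The counts of calls depended on the library labelled KO 2. Over all 6 libraries edgeR's quasi-likelihood test called 0 genes in each direction, DESeq2 called 431 lower and 775 higher, with 1 of the 10 macrophage genes (Spp1) lower, and edgeR's exact test called 39 lower and 66 higher with none of the 10. DESeq2 gave no adjusted p for Lyz2 and Arg1 over all 6. With each library left out in turn, genes called lower ran from 0 to 4608 and higher from 0 to 3986, the macrophage genes called lower from 0 to 7 and their median log2 fold change from -2.17 to -0.76, the counts above 0 all coming from leaving out KO 2. WT 1, WT 2, KO 1 and KO 3 alone gave 2244 genes lower, 464 higher, 5 macrophage genes lower and a median of -1.70. Of the 16279 genes entered without KO 2, DESeq2 called 4629 lower and 4585 higher, and 8 macrophage genes lower with a median of -2.14. Limma-voom called 4536 lower and 4231 higher, and 6 macrophage genes lower with a median of -1.95. Of the 16183 genes entered over the 4 libraries, DESeq2 called 3160 lower and 2679 higher, with 7 macrophage genes lower. Limma-voom called 2008 lower and 476 higher there, with 5 macrophage genes lower. The cause of these shifts was not tested beyond the libraries left out.

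Cd163, never called, was below 0 with total counts (-0.14) and limma-voom (-0.016), and with each library left out it ran from -0.21 (without KO 1) to 0.29 (without KO 2). Arg1 ran from -4.55 (without KO 2) to 0.19 (without WT 3). Of the other fold changes of the 10 genes under these alternatives, 154 kept their direction and side of the threshold and 39 kept their direction and passed it. With the replicate number as a block, 0 genes were called and the median of the macrophage genes was -1.57. Libraries with the same number deviated from their group means together in 2 of 3 pairs (correlations 0.55, 0.59 and -0.21), so the numbers were not taken to pair the tumors. Each group had 3 tumors, the label of 1 was in doubt, and Arg1 and Spp1 were highest in a single WT tumor, so small differences may go undetected here, and for Arg1, with 2 to 4 counts in KO 1 and KO 3, counting depth is a limit as well.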

Other observations

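Genes beside Ms4a7 in the same family and genes of the mannose receptor and Trem families, picked after their values were seen, gave the following levels, with no test. Ms4a6c stood at 13.9, 36.3 and 26.8 CPM in WT 1, WT 2 and WT 3 and at 2.27, 23.6 and 1.35 CPM in KO 1, KO 2 and KO 3, the same order of libraries as for Ms4a7 in that KO 1 and KO 3 were below every WT library and KO 2 was within the WT range. Ms4a6b and Ms4a6d were also below every WT library in KO 1 and KO 3, at 1.93 and 1.25 CPM and at 2.04 and 1.87 CPM. Mrc2, a collagen receptor of mesenchymal cells, stood at 18.4, 26.1 and 25.6 CPM in the WT libraries and at 11.6, 14.6 and 19.2 CPM in the KO libraries, where Mrc1 was not lower. Treml2 stood at 3.20, 3.28 and 3.47 CPM in the WT libraries and at 0.908, 3.70 and 1.66 CPM in the KO libraries, with KO 2 again the highest library, as for Trem2.

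Markers of other immune cells moved with the macrophage genes, and their part in those results was not tested. Without KO 2, 8 of 9 T cell genes were called lower, 0 higher and 1 was not called, with a median log2 fold change of -2.75. Their summed level was 36.3 to 40.2 CPM in the WT libraries against 28.6, 56.5 and 7.79 CPM in KO 1, KO 2 and KO 3. The sum was nearer to the WT range in KO 1 than in KO 3. For dendritic cells 6 of 10 genes were lower and 1 higher, with a median of -1.86 and sums of 106 to 115 CPM against 58.7, 178 and 57.7 CPM, and for B cells 4 of 5 genes were lower, with a median of -2.06 and sums of 10.7 to 15.4 CPM against 3.97, 17.7 and 1.97 CPM. Over WT 1, WT 2, KO 1 and KO 3, 8 T cell genes, 4 dendritic cell genes and 2 B cell genes were lower and 0 higher, and over all 6 libraries 0 were called. Of 10 neutrophil genes 3 were in the file and 0 were called, and Ly6g, Mpo, Cxcr2 and Retnlg were not among the genes analysed here. Myelinating oligodendrocyte genes (median 1.23, 1 of 8 higher), astrocyte genes (0.73, 5 higher and 1 lower of 8) and endothelial genes (-0.27, 1 lower and 2 higher of 10) are given without KO 2. Over WT 1, WT 2, KO 1 and KO 3, 0 oligodendrocyte and 0 endothelial genes were called, and 1 astrocyte gene was higher and 1 lower.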
